A study of Mus musculus with 69 samples.

Results

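Potassium channels are membrane proteins that let potassium leave or enter the cell, and so set the resting potential and the shape and rate of electrical activity. Voltage-gated (Kv) channels open on depolarisation, inward rectifiers hold the resting potential and answer to G proteins or ATP, two-pore channels carry background leak, and calcium- or sodium-activated channels follow those ions. Endocrine cells of the anterior pituitary fire action potentials that drive hormone release, and their potassium channels are targets of the hypothalamic factors that govern secretion.

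The genes described here are the 93 genes whose symbols begin with Kcn followed by a family letter and a number, out of 55964 gene IDs in the deposited count tables. The name rule used no measured value, and all 93 had a row in each tissue and cohort. They comprise 8 Kv1, 2 Kv2, 4 Kv3, 3 Kv4 and 5 Kv7 genes, 8 genes of the EAG, ERG and ELK group, 10 silent Kv subunits, 15 inward rectifiers, 14 two-pore channels, 8 calcium- or sodium-activated channels and 16 auxiliary subunits.

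The study sequenced RNA of pituitary, hypothalamus and ovary from female C57BL/6J mice staged for proestrus. Zeb1_WT mice (WT) had the normal Zeb1 gene, while in Zeb1_200H (200H) 1 allele and in Zeb1_200M (200M) both alleles carried point mutations in the predicted miR-200a and miR-200b sites of the Zeb1 3′ UTR, a germline change present in every tissue. The young cohort were virgins of 8 to 12 weeks and the older cohort were females of 28 to 36 weeks previously used in a breeding trial. The 69 libraries, each from a different mouse within its group, made 18 groups of 4, except 3 in young WT pituitary, older 200M pituitary and older 200M hypothalamus. Cohorts also differed in library chemistry, in strand (young stranded, older unstranded) and in read counting, so these and age cannot be told apart. The paper reports impaired ovulation in homozygous mutant females, most of which bore no litters in the breeding trial. Genotype and pregnancy history therefore cannot be told apart in the older 200M comparisons. In 200M ovary of either cohort, genotype and ovulation cannot be told apart here, because the labels do not give ovulation by library. The paper marks, among young ovaries, 1 200M mouse with corpora lutea in the other ovary. It also marks 1 200H mouse in which none were detected there. Each tissue was dissected whole, so fewer cells of a type and less RNA per cell cannot be told apart.

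Total counts per library ranged from 3.32e6 in young hypothalamus to 14.66e6 in older ovary. Zeb1 in pituitary was at 95.59 ± 2.57 CPM (counts per 1e+06 counts after TMM scaling, mean ± SD) in young WT, 130.5 ± 4.12 in 200H and 137.9 ± 4.90 in 200M, and at 58.8 ± 3.15, 73.8 ± 2.64 and 85.2 ± 6.08 CPM in the older groups. The tissue labels held against markers: the summed level of 10 pituitary endocrine genes was 66350 CPM or more in every pituitary library and at most 179.4 CPM in hypothalamus. That sum fell between the pituitary groups. It ranged from 161400 to 184900 CPM in young WT, from 71230 to 99680 in 200H and from 66350 to 88890 in 200M, and from 287300 to 330600, from 151600 to 228100 and from 163800 to 208700 CPM in the older groups.

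The tissues differed in the leading channel gene in WT mice and shared several others. Of the 93 genes, 67 reached a mean of 1 CPM in young WT pituitary, 75 in young hypothalamus and 75 in young ovary, and in the older cohort the numbers were 62, 77 and 58. Summed over all 93, the level was 1795 CPM in young WT pituitary, 5019 in hypothalamus and 1017 in ovary, and 1489, 3978 and 892.5 CPM in the older cohort. Levels of different genes are compared only after division by exon length (CPM per kb).

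Among the highest levels per kb in young WT pituitary were those of Kcnh8 of the ELK group at 28.5 ± 2.2 CPM per kb, Kcnh2, the ERG channel also known from heart, at 17.7 ± 0.76, the leak channel Kcnk2 at 13.0 ± 1.5 and the A-type channel Kcnd3 at 12.9 ± 0.57 (n = 3). Kcnk2 and Kcnd3 did not differ beyond their spread. In older WT pituitary they included those of Kcnh2 at 31.6 ± 2.8 CPM per kb, the sodium-activated Kcnt1 at 27.2 ± 5.4, the Kv4 partner Kcnip3 at 14.9 ± 3.5 and the weak leak channel Kcnk1 at 14.9 ± 2.0 (n = 4). Within each of the pairs Kcnh2 with Kcnt1 and Kcnip3 with Kcnk1, the SDs overlapped.

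Hypothalamus was led in both cohorts by Kcnj10, the inward rectifier of astrocytes, at 108.4 ± 2.8 CPM per kb in young and 84.6 ± 8.1 in older WT (n = 4). It was followed in the young cohort by the Kv4 partner Kcnip4 at 41.7 ± 2.4, Kcna2 at 35.9 ± 1.3, Kcnma1 at 26.7 ± 0.77 and Kcnk9 at 22.7 ± 0.61. In the older cohort Kcnab2 followed at 32.3 ± 2.4, and Kcnc4 at 27.5 ± 1.2 and Kcnc1 at 24.2 ± 3.0 were also among the highest. The last 2 of these overlapped within 1 SD.

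In young WT ovary the sodium-activated Kcnt2 stood first at 26.2 ± 3.9 CPM per kb, before Kcnk1 at 11.6 ± 0.82, Kcnma1 at 9.18 ± 0.80, Kcng3 at 8.36 ± 1.4 and Kcnh2 at 7.82 ± 0.50. In older WT ovary Kcnk3 at 35.7 ± 25.2 and Kcnab3 at 27.6 ± 13.4 CPM per kb were followed by Kcnh2 at 15.9 ± 1.9, Kcnk1 at 14.1 ± 5.9 and Kcnip3 at 8.14 ± 1.7 (n = 4 each). The first 2 varied so much between mice that their order was not resolved.

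**Figure D1:**
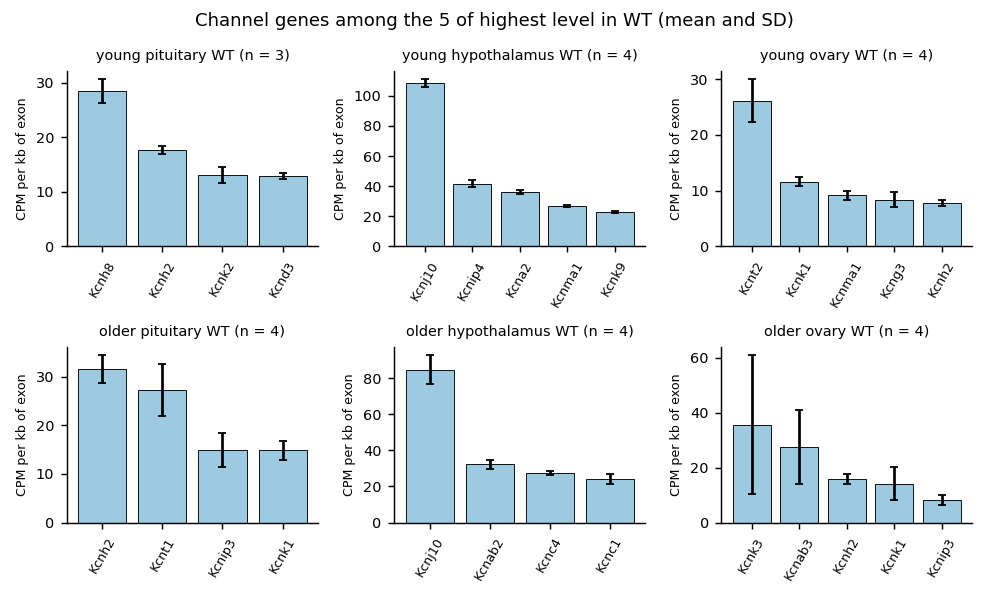
Bars show the mean level of channel genes among the 5 highest in WT, in CPM per kb of exon, with SD as error bars, in a panel for each tissue and cohort (n = 3 in young pituitary, 4 elsewhere, with a scale for each panel). Kcnj10 in hypothalamus is the tallest bar at 108.4 and 84.6 CPM per kb, and the wide bars of Kcnk3 and Kcnab3 in older ovary show the spread between mice.

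The allele frees Zeb1, a repressor that binds E-box motifs, from the miR-200 family. To set the channel genes beside both sequences, miR-200 matches in their 3′ UTRs and E-boxes in their promoters were listed. The mature miRNAs of both seed classes (RefSeq, GRCm38.p6) are shown because their seeds define the matches, with the seed, bases 2 to 8, in capitals. The class of miR-200a, on chr4:156054911-156054932 (minus strand), includes miR-141-3p, and that of miR-200b, on chr4:156055685-156055706 (minus strand), includes miR-200c-3p and miR-429-3p.
miR-200a-3p: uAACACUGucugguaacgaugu
miR-200b-3p: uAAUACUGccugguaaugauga

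A perfect 8-base match to a seed class was found in an annotated 3′ UTR (GENCODE M21, GRCm38) of 10 of 93 channel genes, 10.8% against 6.94% of 20996 genes with a 3′ UTR. Matches of channel genes called in 200M pituitary or ovary are shown, 5′ to 3′ on the gene's strand, with the match in capitals. They lie at chr3:107112761-107112768 and chr3:107113000-107113007 for Kcna2 (plus), chr6:21728039-21728046 for Kcnd2 (plus), chr17:83587348-83587355 for Kcng3 (minus), chr2:62697746-62697753 for Kcnh7 (minus) and chr15:65993694-65993701 for Kcnq3 (minus).
Kcna2 first, miR-200a: ttcctcttggtCAGTGTTAgagtcctaggg
Kcna2 second, miR-200a: gtcttgcctagCAGTGTTAaagtcatgggg
Kcnd2, miR-200b: ttcggatagttCAGTATTAattattgttta
Kcng3, miR-200a: ttggaacttaaCAGTGTTAtttttgagact
Kcnh7, miR-200a: ctaaaaggagaCAGTGTTAgtgttggggcc
Kcnq3, miR-200b: gtggatcaccaCAGTATTAgtgtctcagtc

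Promoter windows from 250 bases before to 50 after the annotated start (RefSeq, GRCm38.p6) were available for 68 of the 93 genes. The E-boxes searched were CAGGTA and CAGGTG on either strand, read on the gene's strand also as TACCTG and CACCTG. At least 1 was present for 25 genes, 36.8% of the 68, against 32.5% of 27025 genes and 29.5% of 32851 promoters. Windows around 1 E-box of genes that fell in 200M pituitary (Kcnk12, Kcnip1) and of genes that rose (Kcna2, Kcna4, Kcnc2) are shown so that both directions can be compared, with the E-box in capitals. They lie at chr17:87798211-87798216 (minus), chr11:33843877-33843882 (minus), chr3:107101552-107101557 (plus), chr2:107290344-107290349 (plus) and chr10:112269950-112269955 (plus).
Kcnk12: acggcagtgggaCACCTGctctggtgggac
Kcnip1: gcacccaccagcCAGGTGcctgatcacatc
Kcna2: tcgctgcggggcCAGGTGcggcgctgcgtg
Kcna4: agtggCACCTGtgctgtggtcgg
Kcnc2: gcttaaagagtgCAGGTAgggctccagaga

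The question in pituitary was which transcripts change when Zeb1 escapes miR-200. Many channel genes did, most of them upwards. In young 200M pituitary 35 of the 69 channel genes tested were called at an adjusted p under 0.05 (50.7%), where 21.5% of all 18199 genes tested were. Of the 69 tested, 27 rose, where 11.5% of all genes did, and 8 fell, where 10% of all genes did. In older 200M pituitary 30 of 66 were called (45.5%, against 21.4% of 14711 genes). Of the 66 tested, 22 were raised (11.7% of all genes) and 8 were lowered (9.77% of all genes). In each cohort the share of channel genes that fell was close to that over all genes. Changes are written below as log2 fold change ± SE. Their median over the tested channel genes was 0.38 in young and 0.48 in older mice, beside 0.00 and -0.01 over all genes.

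Scaling by library totals alone moved the median log2 fold change of all genes up by 0.12 in the young and 0.18 in the older 200M comparison. With that scaling 34 channel genes were higher and 6 lower in the young cohort, and 37 higher and 6 lower in the older one. No channel gene that was called and is named here changed direction between the scalings. Direction was not checked for genes that were not called. Summed neuron markers (6 genes, several also expressed in endocrine cells) ranged from 580.5 to 642.6 CPM in young WT and from 633.4 to 780.2 in 200M, with 3 of 5 tested raised and 1 lowered. They ranged from 361.6 to 429.7 and from 545.6 to 622.5 CPM in the older groups, with 5 of 6 raised. Of 7 neuropeptide genes of hypothalamic neurons, 1 passed the filter in the young cohort and was not called, and 2 passed in the older cohort, of which 1 rose. Other marker sums also stood apart from WT in 200M pituitary. Summed fibroblast markers were at 517.6 to 636.5 CPM in young WT and 272.3 to 374.6 in 200M, and at 634.7 to 991.1 and 390.3 to 506.3 CPM in the older groups, with 1 of 4 raised and 1 lowered in each cohort. Oligodendrocyte markers were at 70.84 to 77.86 CPM in young WT and 42.32 to 48.57 in 200M, and at 61.82 to 89.06 and 45.4 to 57.3 CPM in the older groups, with 1 of 2 tested lowered in each. Immune markers were at 23.47 to 30.79 and 36.47 to 42.2 CPM in the young and at 61.82 to 74.84 and 79.51 to 108 CPM in the older groups, with 2 and 1 of 4 raised. The part of these shifts, and of the fall in endocrine genes, in the channel results was not tested.

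Tests in both cohorts covered 65 channel genes. Of them 25 passed in each, with the same sign in each case. Of the 65, 18 were raised in both, where 8.2% of 14080 genes were, and 7 were lowered in both, where 6.12% were. The cohorts shared no animals. By role, genes called upwards in the young and older cohort numbered 4 and 3 of the Kv1 genes tested (6 and 5), 3 and 3 of 4 Kv3 genes, 2 and 3 of 5 Kv7 genes, 4 and 2 of 8 genes of the EAG, ERG and ELK group, 3 and 3 of 8 two-pore genes and 1 and 3 of the inward rectifiers tested (8 and 7). None of the 3 Kv4 genes was called in either cohort. Auxiliary subunits rose in 4 and 2 of those tested (11 and 10). Calcium- or sodium-activated channels rose in 2 and 1 of 7, and silent Kv subunits in 3 and 1 of 7. Downward calls were 3 and 3 of 8 two-pore genes, 1 and 2 of 8 in the EAG, ERG and ELK group, 2 and 1 of the auxiliary subunits and 1 and 1 of 7 calcium- or sodium-activated channels. Over all genes 11.5% and 11.7% rose and 10% and 9.77% fell. Some groups, such as the inward rectifiers in the young cohort, lay near those shares.

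**Figure D2:**
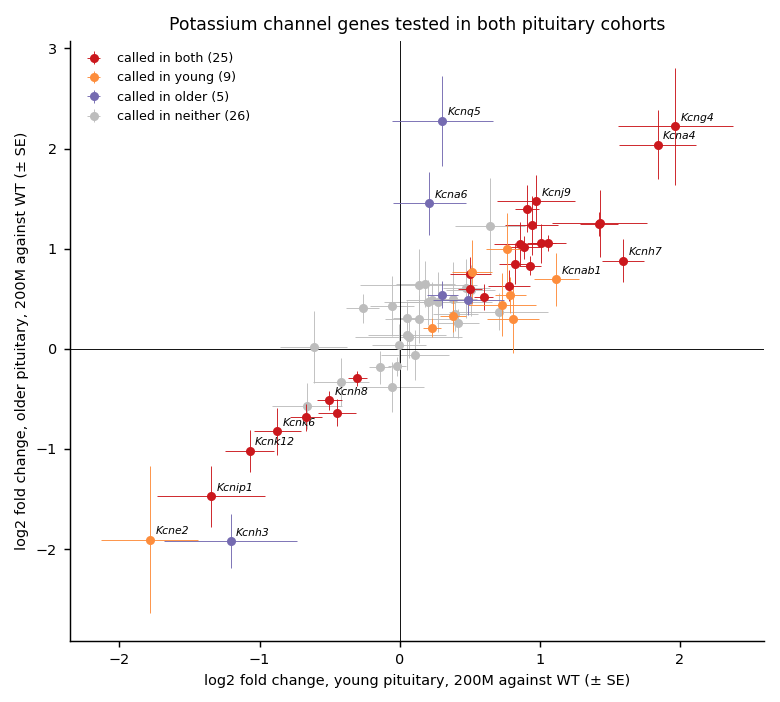
Each point is a channel gene tested in both pituitary cohorts, placed by its log2 fold change of 200M against WT in young (x) and older (y) mice, with SE bars, and coloured by whether it was called in both cohorts, 1 or neither. The 25 genes called in both lie in the upper right (18) or lower left (7) of the plot.

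Among the pore-forming Kv subunits, Kcna4 and Kcna2 of the Kv1 family rose in both cohorts. Kcna4 encodes a rapidly inactivating A-type channel. Its level in young pituitary was 2.45, 2.2 and 1.37 CPM in WT, 2.78, 3.86, 6.78 and 4.66 CPM in 200H and 8.46, 5.24, 6.45 and 9.13 CPM in 200M. In older pituitary Kcna4 was at 0.828, 0.438, 0.6 and 0.438 CPM in WT, 1.28, 1.07, 1.58 and 0.424 CPM in 200H and 2.51, 2.19 and 2.25 CPM in 200M. There the filter kept Kcna4 only through its 200M libraries, where it is high. All 200M libraries lay above all WT libraries in both cohorts, and the change was 3.58-fold in the young (log2 1.84 ± 0.27, adjusted p = 0.000212) and 4.11-fold in the older cohort (log2 2.04 ± 0.35, adjusted p = 0.00157). Kcna2, a delayed rectifier of axons, was at 69.6, 52.1 and 59.1 CPM in WT, 91.2, 94.9, 145 and 108 CPM in 200H and 106, 133, 136 and 112 CPM in 200M in young pituitary. In older pituitary Kcna2 was at 27.6, 33.1, 45 and 55.8 CPM in WT, 70.1, 92.8, 65 and 71.3 CPM in 200H and 81, 71.9 and 96.1 CPM in 200M. Both 200H and 200M libraries lay above every WT library in each cohort. The 200M log2 change of Kcna2 was 1.01 ± 0.10 (adjusted p = 6.61e-06) in young and 1.05 ± 0.20 (adjusted p = 0.00286) in older mice. Kcna6, of the same family, was called in the older cohort alone (log2 1.45 ± 0.32, adjusted p = 0.00688) and Kcna5 in the young cohort alone (log2 0.79 ± 0.11, adjusted p = 0.000107). Their cohort difference was not called by the interaction test given further on.

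Of the Kv3 genes, which serve rapid repolarisation and repeated firing, Kcnc1, Kcnc2 and Kcnc4 rose. Kcnc1 was at 22.4, 16.5 and 18.1 CPM in WT, 25.2, 27.7, 44 and 34.2 CPM in 200H and 37.1, 29.6, 38.7 and 35.4 CPM in 200M in young pituitary. In older pituitary Kcnc1 was at 17.1, 17.1, 14.4 and 18.5 CPM in WT, 15.9, 26.2, 33.1 and 30.7 CPM in 200H and 32.9, 32.6 and 36 CPM in 200M. Every 200M library was above every WT library in both cohorts, with a log2 change of 0.88 ± 0.12 (adjusted p = 0.0001) in young and 1.01 ± 0.11 (adjusted p = 7.98e-05) in the older mice. Kcnc2 was at 4.19, 3.3 and 3.17 CPM in WT, 4.78, 4.38, 5.67 and 5.8 CPM in 200H and 6.21, 7.16, 7.35 and 6.79 CPM in 200M in young pituitary. In older pituitary Kcnc2 was at 3.31, 1.93, 1.2 and 1.86 CPM in WT, 2.33, 3.31, 2.77 and 2.44 CPM in 200H and 4.39, 5.03 and 5.32 CPM in 200M. Its 200M libraries lay above those of both other genotypes in each cohort, at a log2 change of 0.94 ± 0.19 (adjusted p = 0.00229) and 1.23 ± 0.29 (adjusted p = 0.0109). Kcnc4 also rose (0.82 and 0.85 on the log2 scale, adjusted p = 0.000112 and 0.0119), a call that in the older cohort was lost without 200M replicate 1 or 3 (log2 0.77 and adjusted p = 0.0537 without 200M replicate 1).

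Of the Kv7 genes, Kcnq3 rose in both cohorts. It encodes a subunit of the M-current, a slow current that muscarinic and other receptors shut off to raise excitability. Kcnq3, with a miR-200b match, was at 5.11, 2.31 and 4.33 CPM in WT, 6.87, 14.2, 6.48 and 8.9 CPM in 200H and 18.2, 6.74, 9.97 and 7.16 CPM in 200M in young pituitary. In older pituitary Kcnq3 was at 2.07, 2.63, 3.4 and 4.05 CPM in WT, 8.84, 2.98, 6.93 and 4.56 CPM in 200H and 7.74, 9.94 and 3.27 CPM in 200M. Its groups were apart in the young cohort and overlapped in the older one (log2 1.43 ± 0.34, adjusted p = 0.00765 and 1.26 ± 0.33, adjusted p = 0.0191). The older call was lost without WT replicate 2 or 200M replicate 1 or 2 (log2 0.89 and adjusted p = 0.157 without 200M replicate 2). Kcnq5 was called in older pituitary alone, at a log2 change of 2.28 ± 0.45 (adjusted p = 0.0039), beside 0.30 (adjusted p = 0.611) in the young cohort.

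Silent Kv subunits form no channel alone but modify Kv2 channels. Among the 25 shared genes the one that moved furthest upwards in both cohorts was the silent subunit Kcng4. It was at 0.409, 0.55 and 1.16 CPM in WT, 1.3, 1.37, 2.43 and 1.14 CPM in 200H and 2.25, 3.25, 3.75 and 1.85 CPM in 200M in young pituitary. In older pituitary Kcng4 was at 0.414, 0.175, 0 and 1.31 CPM in WT, 1.4, 2.56, 0.991 and 2.01 CPM in 200H and 2.72, 1.94 and 2.86 CPM in 200M. Levels were low throughout, and in the older 200M libraries rested on 13, 15 and 14 counts. In older pituitary the filter kept Kcng4 only through its 200M libraries, where it is high. In young pituitary its WT libraries alone would not have passed the filter either. Its place as the gene that moved furthest therefore rests on values near the floor in WT. The 200M libraries lay above all WT libraries, at a log2 change of 1.97 ± 0.41 (adjusted p = 0.00306) in young and 2.22 ± 0.58 (adjusted p = 0.0179) in older mice. The older call was lost without WT replicate 2 or 200M replicate 1 or 3 (log2 2.11 and adjusted p = 0.0701 without 200M replicate 3).

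In the EAG, ERG and ELK group, Kcnh7, an ERG channel with a miR-200a match, was at 5.42, 7.59 and 6.13 CPM in WT, 10.9, 13.5, 14.1 and 13.5 CPM in 200H and 21.5, 20.1, 19 and 16.4 CPM in 200M in young pituitary. In older pituitary Kcnh7 was at 10.2, 5.87, 7.61 and 7.44 CPM in WT, 8.38, 12.6, 9.31 and 9.96 CPM in 200H and 12.3, 17.4 and 11.9 CPM in 200M. It rose 3.02-fold in young 200M, whose libraries were above all others (log2 1.59 ± 0.15, adjusted p = 2.8e-06), and 1.84-fold in older 200M (log2 0.88 ± 0.21, adjusted p = 0.0122), a call lost without 200M replicate 2 (log2 0.68 and adjusted p = 0.091). Kcnh1 (EAG) rose in both cohorts (0.50 and 0.74 on the log2 scale). Its calls were lost without WT replicate 2 or u or 200M replicate 3 (log2 0.37 and adjusted p = 0.109 without WT replicate u) in young and lost without 200M replicate 3 (log2 0.66 and adjusted p = 0.0505) in older mice.

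Kcnh8, of the ELK group and among the highest in level in young WT pituitary, fell. It was at 137, 134 and 118 CPM in WT, 91.5, 95.3, 97.8 and 94.1 CPM in 200H and 82.8, 102, 103 and 79.96 CPM in 200M in young pituitary. In older pituitary Kcnh8 was at 57.7, 71.3, 62.6 and 60.3 CPM in WT, 47.8, 51.4, 48.3 and 48.5 CPM in 200H and 42.3, 48.4 and 40.1 CPM in 200M. All 200H and 200M libraries were below all WT libraries in each cohort, at a 200M log2 change of -0.50 ± 0.09 (adjusted p = 0.000893) and -0.51 ± 0.10 (adjusted p = 0.00304). Its relative Kcnh3 was called in older 200M alone (log2 -1.92 ± 0.27, adjusted p = 0.000421), beside -1.21 (adjusted p = 0.0875) in young 200M.

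The two-pore channels divided into genes that rose and genes that fell. The acid-sensitive leak channel Kcnk3 was at 11.3, 8.47 and 8.99 CPM in WT, 16.2, 22.7, 28.1 and 19.9 CPM in 200H and 30.3, 24.6, 23.5 and 25.2 CPM in 200M in young pituitary. In older pituitary Kcnk3 was at 15, 14.2, 12.4 and 15.9 CPM in WT, 18.3, 25.5, 25 and 21.2 CPM in 200H and 33.7, 33.2 and 35.4 CPM in 200M. In the older cohort the WT, 200H and 200M libraries were stacked in that order without overlap. Kcnk3 rose 2.68-fold in young 200M (log2 1.42 ± 0.13, adjusted p = 3.18e-06) and 2.37-fold in older 200M (log2 1.25 ± 0.12, adjusted p = 1.75e-05). Its close relative Kcnk9 was at 76.3, 82.7 and 71 CPM in WT, 114, 101, 159.7 and 95.2 CPM in 200H and 154, 155, 149.9 and 119.7 CPM in 200M in young pituitary. In older pituitary Kcnk9 was at 4.28, 7.44, 10.2 and 8.32 CPM in WT, 15.1, 14.2, 10.5 and 18.4 CPM in 200H and 22.8, 15.4 and 20.9 CPM in 200M. Both mutant groups lay above WT in each cohort, and the 200M change was 0.91 ± 0.09 (adjusted p = 2.98e-06) in young and 1.40 ± 0.24 (adjusted p = 0.00146) in older mice. Kcnk2, a leak channel opened by stretch and lipids, rose as well (log2 0.93 ± 0.08, adjusted p = 1.27e-06 in young and 0.83 ± 0.09, adjusted p = 7.51e-05 in older 200M).

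The members that fell were the weak leak channels Kcnk1 and Kcnk6 and the poorly conducting Kcnk12. Kcnk12 was at 12, 10.01 and 12.8 CPM in WT, 6.08, 6.44, 5.06 and 4.66 CPM in 200H and 6.91, 5.74, 4.87 and 4.44 CPM in 200M in young pituitary. In older pituitary Kcnk12 was at 15, 22.5, 19.2 and 14.8 CPM in WT, 11.2, 10.1, 15.1 and 8.59 CPM in 200H and 11.1, 6.71 and 9 CPM in 200M. Its 200M libraries were below all WT libraries (log2 -1.07 ± 0.17, adjusted p = 0.000412 in young and -1.02 ± 0.21, adjusted p = 0.00493 in older mice). Kcnk1 was at 32.2, 23.8 and 29.6 CPM in WT, 21.6, 21.7, 19.8 and 18.7 CPM in 200H and 16.6, 18.8, 19.1 and 17.5 CPM in 200M in young pituitary. In older pituitary Kcnk1 was at 36.6, 30.6, 28.4 and 37.3 CPM in WT, 19.5, 17.7, 18 and 20.5 CPM in 200H and 17.8, 22.5 and 21.3 CPM in 200M. Both mutant groups were below WT throughout, at a 200M log2 change of -0.67 ± 0.11 (adjusted p = 0.000583) and -0.68 ± 0.13 (adjusted p = 0.00384). Kcnk6 was at 10.5, 12.7 and 8.35 CPM in WT, 6.08, 7.38, 5.67 and 7.87 CPM in 200H and 6.05, 5.58, 5.62 and 5.8 CPM in 200M in young pituitary. In older pituitary Kcnk6 was at 12.4, 13.8, 7.41 and 10.5 CPM in WT, 4.77, 5.65, 5.75 and 8.8 CPM in 200H and 4.39, 6.71 and 7.57 CPM in 200M. Its 200M and WT libraries were apart in the young cohort (log2 -0.87 ± 0.17, adjusted p = 0.00182) and overlapped in the older one (log2 -0.83 ± 0.24, adjusted p = 0.0261), where the call was lost without WT replicate 1 or 2 or 200M replicate 1 or 2 (log2 -0.66 and adjusted p = 0.106 without 200M replicate 1).

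Of the inward rectifiers, the G protein-gated subunit Kcnj9 was called in both cohorts. It was at 1.74, 1.87 and 2.33 CPM in WT, 3.21, 1.8, 3.04 and 3.21 CPM in 200H and 2.87, 3.91, 3.9 and 5.18 CPM in 200M in young pituitary. In older pituitary Kcnj9 was at 2.48, 7.01, 6 and 3.94 CPM in WT, 13.5, 9.38, 12.7 and 10.4 CPM in 200H and 14, 14.6 and 11.7 CPM in 200M. Every 200M library was above every WT library, at a log2 change of 0.97 ± 0.28 (adjusted p = 0.0215) in young mice, lost without WT replicate 1 or 2 (log2 0.88 and adjusted p = 0.0872 without WT replicate 1), and 1.47 ± 0.26 (adjusted p = 0.00211) in older mice. Its partner Kcnj3 reached the threshold in older 200M (log2 0.54 ± 0.14, adjusted p = 0.0148), a call lost without 200M replicate 1 or 3 (log2 0.51 and adjusted p = 0.0661 without 200M replicate 3), and had a log2 change of 0.30 (adjusted p = 0.0707) in young 200M. Kcnj6 (log2 fold change -0.14 and -0.18) and Kcnj11, the pore of the ATP-sensitive channel (-0.01 and 0.04), were not called in either cohort. Kcnj8, the ATP-sensitive pore of mural cells, was called in older 200M (log2 0.49 ± 0.14, adjusted p = 0.0299), and that call was lost without WT replicate 1 or 3 or 200M replicate 1, 2 or 3 (log2 0.47 and adjusted p = 0.0967 without 200M replicate 3). Summed markers of mural cells were at 258.2 to 276 CPM in young WT and 346.9 to 402.4 in young 200M, with 3 of 5 genes raised. In older mice, where Kcnj8 was called, they overlapped at 227.5 to 319.6 CPM in WT and 271 to 345 in 200M, with 0 of 5 raised, and their part in Kcnj8 was not tested.

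Among channels opened by internal ions, the large-conductance calcium-activated Kcnma1 rose in both cohorts (log2 0.60 ± 0.07, adjusted p = 1.65e-05 and 0.52 ± 0.13, adjusted p = 0.0141), the older call being lost without 200M replicate 1 or 3 (log2 0.47 and adjusted p = 0.0666 without 200M replicate 3). Its subunit Kcnmb2 rose with it (0.78 and 0.63 on the log2 scale), the older call being lost without 200M replicate 3 (log2 0.51 and adjusted p = 0.0817). The small-conductance Kcnn2 had a log2 change of 0.42 in young (adjusted p = 0.0657) and 0.25 in older 200M (adjusted p = 0.233), and Kcnn3 of -0.42 and -0.33 (adjusted p = 0.162 and 0.356).

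Kcnt1 was at 81.4, 74.3 and 104 CPM in WT, 72.8, 90.5, 47.8 and 61.9 CPM in 200H and 70.2, 61.8, 76.4 and 45.7 CPM in 200M in young pituitary. In older pituitary Kcnt1 was at 229, 284, 317 and 205 CPM in WT, 303, 194, 251 and 367 CPM in 200H and 155, 164 and 174 CPM in 200M. The 200M libraries were below those of both other genotypes in older mice (log2 -0.64 ± 0.13, adjusted p = 0.00536) and overlapped with WT in young mice (log2 -0.45 ± 0.14, adjusted p = 0.0284). The young call was lost without WT replicate u or 200M replicate 2 or 4 (log2 -0.29 and adjusted p = 0.178 without WT replicate u). Kcnh2, among the 3 highest channel genes per kb in both WT pituitary groups, had a log2 change of 0.23 in young (adjusted p = 0.0205) and 0.21 in older 200M (adjusted p = 0.135). The young call was lost without WT replicate 1 or u or 200M replicate 2 or 3 (log2 0.20 and adjusted p = 0.0994 without WT replicate u). Kcnd3 was not called (-0.02 and -0.17, adjusted p = 0.864 and 0.212).

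Of the auxiliary subunits, the Kv4 partner Kcnip1 fell. It was at 2.56, 3.63 and 5.18 CPM in WT, 0.869, 1.2, 0.405 and 1.55 CPM in 200H and 2.48, 0.666, 1.12 and 1.73 CPM in 200M in young pituitary. In older pituitary Kcnip1 was at 3.86, 5.08, 4.4 and 2.85 CPM in WT, 1.05, 0.853, 1.58 and 0.954 CPM in 200H and 1.25, 1.42 and 1.64 CPM in 200M. There the filter kept Kcnip1 only through its WT libraries. In each cohort both mutant groups lay below all WT libraries, at a 200M log2 change of -1.34 ± 0.38 (adjusted p = 0.021) in young and -1.47 ± 0.30 (adjusted p = 0.00493) in older mice. The young call was lost without WT replicate u or 200M replicate 2 or 3 (log2 -1.05 and adjusted p = 0.13 without WT replicate u). Kcnab2, a cytoplasmic subunit of Kv1 channels, rose in both cohorts (log2 0.86 ± 0.19, adjusted p = 0.00402 and 1.04 ± 0.22, adjusted p = 0.0055). Kcnab1, its relative, was called in young 200M (log2 1.12 ± 0.16, adjusted p = 0.000164) and had a log2 change of 0.70 (adjusted p = 0.0832) in older 200M. Kcne2, a small single-pass subunit, fell in young 200M (log2 -1.78 ± 0.35, adjusted p = 0.00187) and was at -1.91 (adjusted p = 0.0859) in older 200M.

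**Figure D3:**
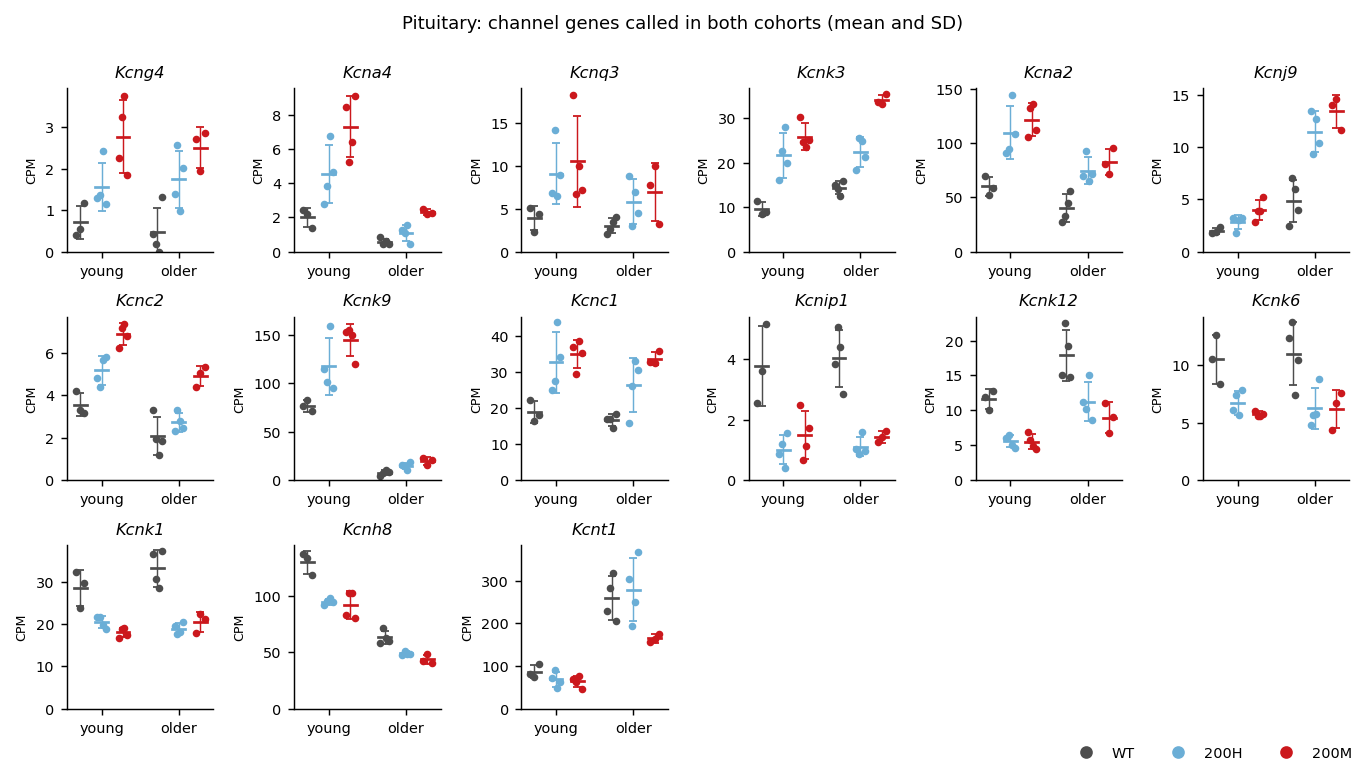
Points are pituitary libraries of WT, 200H and 200M in both cohorts (CPM, linear axes from 0), with mean and SD, for 9 channel genes raised and 6 lowered in both cohorts, among those with the largest change. Genes called upwards show a 200M mean above WT and genes called downwards a mean below it in each cohort, with 200H mostly between. WT and 200M libraries overlap for Kcnq3 and Kcnk6 in the older cohort and for Kcnt1 in the young cohort. In the older cohort 200H libraries of Kcnt1 reach above WT.

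Some of these genes share exon sequence with a gene on the other strand, whose reads the unstranded older libraries cannot tell apart. These include Kcnk3 (Gm9899), Kcnj9 (Gm36937), Kcnh7 (Gca), Kcnk1 (Gm45875), Kcnk2 (A430027H14Rik), Kcnj3 (Gm26794), Kcnma1 (4930519K11Rik), Kcnab3 (Kcnab3os), Kcna6 (Gm26673) and Kcnq5 (Gm26580). In the stranded young libraries Kcnk3, Kcnj9, Kcnh7, Kcnk1, Kcnk2 and Kcnma1 were called in the same direction. Kcna6, Kcnq5 and Kcnj3 were called in older pituitary alone, so no stranded call stands beside theirs.

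Genes with and without a miR-200 match or an E-box were called in both directions. Of 10 tested genes with a miR-200 match, 4 rose (Kcna2, Kcng3, Kcnh7, Kcnq3) and 1 fell in young 200M, at a median log2 fold change of 0.49, beside 23 up and 7 down of 59 without a match, at a median of 0.38. In older 200M 3 rose and 1 fell of 8 with a match, and 19 rose and 7 fell of 58 without. Of 16 tested genes with an E-box in the window, 9 rose and 4 fell in young 200M (median 0.70), against 13 and 1 of 31 without (median 0.30). In older 200M 5 rose and 3 fell of 16 with an E-box, and 12 and 1 of 29 without. These counts are a description of letters in fixed windows and no test was made.

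The heterozygotes were compared with the same WT libraries. In young 200H 25 of 68 channel genes were called (36.8%, against 12.3% of all genes), 19 raised (6.56% of all genes) and 6 lowered (5.72%). In older 200H 24 of 64 were called (37.5%, against 12.2%), 18 raised (7.09%) and 6 lowered (5.14%), and 26 and 3 with scaling by totals alone. The young count fell to 15 without WT replicate u and 16 without WT replicate 1, and the older count to 15 without WT replicate 2. Kcnk2 rose in both cohorts (log2 fold change 0.88 and 0.77, SE 0.09 and 0.09), as did Kcnma1 (0.56 and 0.60). Kcnip1 (-1.91 and -1.91) fell.

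Set side by side, with WT shared, the young 200H and 200M log2 fold changes were 1.01 and 1.59 for Kcnh7, 1.15 and 1.84 for Kcna4, 1.16 and 1.42 for Kcnk3 and -1.06 and -1.07 for Kcnk12. The direct test of 200M against 200H called 0 of 69 channel genes in young pituitary by edgeR (0.0383% of all genes), and 11 passed an unadjusted p of 0.05, as did 1081 of all 18271 genes. DESeq2 called 1, Kcnh7 (log2 0.58, adjusted p = 0.0114), and edgeR without 200H replicate 3 called 1, Kcnk9. In older pituitary edgeR called 0 of 66 (0.121% of all genes), and 13 passed an unadjusted p of 0.05, as did 1575 of all 14862 genes. DESeq2 called 2, Kcnk3 (log2 0.61, adjusted p = 0.0158) and Kcnt1 (log2 -0.76, adjusted p = 0.000653), and edgeR without 200H replicate 2 called 5, Kcnq1, Kcnh4, Kcnk3, Kcnt1 and Kcng2.

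The cohort difference of the 200M effect in pituitary was tested as an interaction. It called 0 of 72 channel genes by edgeR (0.0273% of all genes) and 0 by DESeq2, with 4 at an unadjusted p under 0.05, where 1257 of 18344 genes were. These 4 were Kcnd2, Kcnq5, Kcnh7 and Kcna6, with older minus young log2 differences of 0.62 (SE 0.20), 1.93 (SE 0.61), -0.76 (SE 0.27) and 1.19 (SE 0.44).

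Proteins that assemble with potassium channels or move potassium were read from lists that include no Kcn gene. Of 15 channel partners, 6 of 13 tested rose in young 200M and 8 of 13 in older 200M (11.5% and 11.7% of all genes), and 0 fell (10% and 9.77%). They included the Kv4 partners Dpp6 (log2 fold change 1.64 and 1.78) and Dpp10 (1.36 and 1.79), Adam23 (0.87 and 0.73) and Adam22 (0.54 and 0.76), receptors of the secreted synaptic protein Lgi1, and Cntnap2 (0.59 and 0.89), which clusters Kv1 channels on axons. Of 21 genes of potassium transport, 5 of 14 tested rose in young 200M and 8 of 14 in older 200M (11.5% and 11.7% of all genes), and 0 fell. The chloride and potassium cotransporter Slc12a5 was among them (log2 fold change 0.82 and 0.48).

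Hypothalamus held the most channel RNA of the 3 tissues, and there no channel gene passed the edgeR test. In young hypothalamus edgeR called 0 of 69 channel genes in 200M (0.02% of all genes), 0 of 67 in 200H (0.0202%) and 0 of 67 between 200M and 200H (0% of all genes), DESeq2 called 0 in each, and 4, 2 and 1 had an unadjusted p under 0.05. Over all genes 847 of 14988, 585 of 14877 and 682 of 14812 did. In older hypothalamus edgeR called 0 of 79 in 200M (0.00622% of all genes), 0 of 78 in 200H (0% of all genes) and 0 of 79 between 200M and 200H (0%), with 22, 7 and 18 at an unadjusted p under 0.05, where 2904 of 16067, 445 of 15910 and 3144 of 16156 genes were.

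DESeq2 called 5 genes lower in older 200M hypothalamus, Kcnma1 (log2 -1.02), Kcna3 (-1.30), Kcnn2 (-0.57), Kcnc1 (-0.34) and Kcnj10 (-0.30), 1 in 200H, Kcnh3 (1.11), and 4 between 200M and 200H, including Kcnk9 (-1.16) and Kcnma1 (-1.01). The share of all genes that DESeq2 called in older hypothalamus is not given here, and the edgeR shares above are no measure of it. Kcnma1 was at 30.3, 31, 46.5 and 52.1 CPM in WT, 30.01, 29.3, 55.4 and 43.3 CPM in 200H and 24.7, 15.1 and 19.6 CPM in 200M there, so that each 200M library was below every WT library. The edgeR fit without WT replicate 1 called Kcnma1 (log2 -1.13, adjusted p = 0.0327), and without 200M replicate 1 it called Kcna3 (-1.73) and Kcnma1 (-1.20). Of the 79 tested, 24 had a positive log2 fold change in older 200M, at a median of -0.10 beside 0.02 over all genes. Summed pituitary endocrine markers were at 62.59 to 108.1 CPM in WT and 93.21 to 179.4 in 200M of that tissue, and neuron markers at 2116 to 2557 and 2171 to 2478 CPM, with 0 of 6 neuron markers called.

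Whether the 200M effect differed between tissues was tested as an interaction of genotype and tissue. Against hypothalamus, 28 of 78 channel genes differed in the young cohort (35.9%, against 10.5% of all genes), 22 of them higher in pituitary and 6 lower, or 26 and 3 with scaling by totals alone. In the older cohort 31 of 82 differed (37.8%, against 17.5%), 27 higher and 4 lower. Among the smallest p-values in the young cohort were those of Kcnh7 (difference in log2 fold change 1.68 ± 0.15, adjusted p = 1.86e-08) and Kcnk9 (0.95 ± 0.12, adjusted p = 1.36e-06), then Kcna2 (1.15), Kcna4 (1.89) and Kcnma1 (0.73). In the older cohort they included that of Kcnk3 (1.32 ± 0.15, adjusted p = 9.62e-06), then Kcnc1 (1.35), Kcna4 (2.33), Kcnj9 (1.56) and Kcnk2 (0.88).

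Within hypothalamus itself, Kcnk3 and Kcna2, raised in 200M pituitary, were not called. Kcnk3 was at 46.2, 37.8, 45.9 and 44 CPM in older WT hypothalamus and at 37.9, 43.3 and 42.2 CPM in 200M (log2 -0.07 ± 0.10, adjusted p = 0.754). Kcna2 was at 406, 438, 438 and 427 CPM in young WT hypothalamus and at 317, 408, 459.5 and 366 CPM in 200M (log2 -0.14 ± 0.08, adjusted p = 0.871). The 200M libraries overlapped with WT for both genes.

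**Figure D4:**
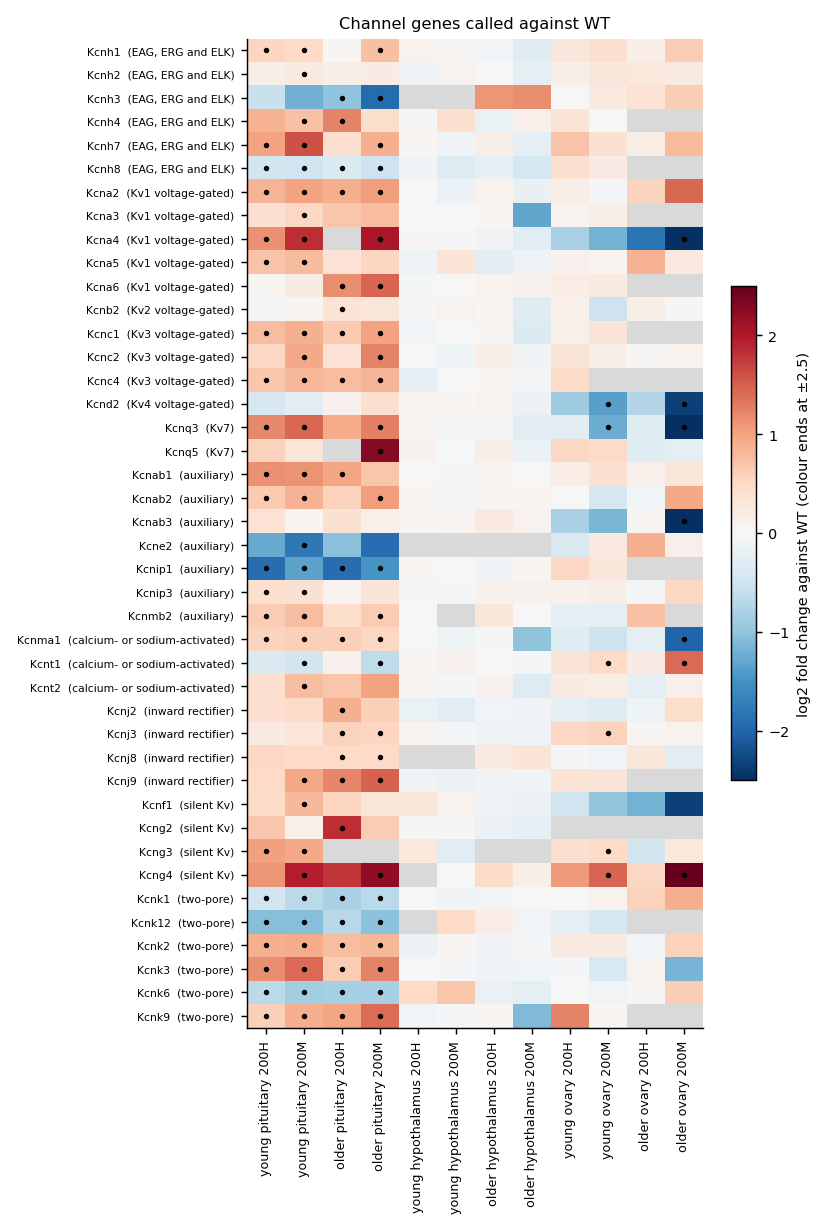
Colour gives the log2 fold change against WT (red higher, blue lower, ends at ±2.5, grey not tested) of channel genes called in a comparison with WT, by tissue, cohort and genotype, with a dot where the adjusted p was under 0.05. Dots fill the pituitary columns, are absent from hypothalamus and mark 6 and 7 genes in young and older 200M ovary.

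In ovary channel genes moved in both directions in 200M. In young 200M ovary 6 of 74 channel genes were called (8.11%, against 2.58% of all genes), 4 raised and 2 lowered, and in older 200M 7 of 57 (12.3%, against 2.71%), 2 raised and 5 lowered. The young count was 1 without WT replicate 1 or 200M replicate 1, 2 without WT replicate 3, WT replicate 4 or 200M replicate 3, 3 without 200M replicate 4 and 9 without 200M replicate 2. The older count was 2 without WT replicate 2 or 3, 3 without 200M replicate 1 or 4 and 4 without WT replicate 4. In heterozygotes edgeR called 0 of 75 genes in the young (0.0051% of all genes) and 0 of 57 in the older cohort (0% of all genes), where 8 and 6 passed an unadjusted p of 0.05 (1384 of 19621 and 1160 of 17605 genes), and DESeq2 called 1 and 0.

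Kcng4, the silent subunit that rose furthest in pituitary, also rose in ovary. It was at 3.77, 3.42, 4.08 and 4.09 CPM in WT, 7.78, 6.28, 11.3 and 5.99 CPM in 200H and 12.7, 6.18, 10.4 and 12.6 CPM in 200M in young ovary. In older ovary Kcng4 was at 4.03, 3.2, 2.46 and 3.61 CPM in WT, 6.08, 1.98, 4.99 and 5.56 CPM in 200H and 25, 21.1, 27.1 and 24.7 CPM in 200M. Every 200M library was above every WT library in both cohorts and above all 200H libraries in the older one. The change was 2.74-fold in young (log2 1.46 ± 0.23, adjusted p = 0.00653) and 7.38-fold in older 200M (log2 2.88 ± 0.19, adjusted p = 0.000514). The older call was kept without any single library.

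Kcnt1, which fell in 200M pituitary, rose in 200M ovary. It was at 25.2, 30.9, 32.3 and 32.2 CPM in WT, 33.9, 36.3, 49 and 27.1 CPM in 200H and 49.1, 37.2, 38.5 and 43.6 CPM in 200M in young ovary. In older ovary Kcnt1 was at 37.5, 25.6, 36.8 and 42.2 CPM in WT, 56.6, 22.9, 51.8 and 30.7 CPM in 200H and 92.3, 128, 64.8 and 90.3 CPM in 200M. Every 200M library was above every WT library in both cohorts, at a log2 change of 0.50 ± 0.11 (adjusted p = 0.0264) and 1.42 ± 0.23 (adjusted p = 0.0186). The young call was lost without WT replicate 1, 3 or 4 or 200M replicate 1, 3 or 4 (log2 0.42 and adjusted p = 0.108 without 200M replicate 1). The older call was lost without WT replicate 2 or 3 or 200M replicate 1 or 4 (log2 1.44 and adjusted p = 0.0683 without WT replicate 3). The difference between pituitary and ovary in the Kcnt1 effect was -0.94 ± 0.19 (adjusted p = 0.00303) in young and -2.04 ± 0.30 (adjusted p = 0.00154) in older mice.

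Kcnma1, raised in pituitary, was at 169, 162, 155 and 137 CPM in WT, 104, 121, 112 and 147 CPM in 200H and 96.9, 163, 83.6 and 87.7 CPM in 200M in young ovary. In older ovary Kcnma1 was at 45.1, 103, 121 and 84.8 CPM in WT, 86, 78.6, 46.6 and 85.5 CPM in 200H and 26, 17.3, 16.8 and 26.8 CPM in 200M. The older 200M libraries were below all others (log2 -2.01 ± 0.31, adjusted p = 0.0158), a call lost without WT replicate 2 or 3 (log2 -1.93 and adjusted p = 0.065 without WT replicate 2). In the young cohort the groups overlapped through 200M replicate 2 (log2 -0.52 ± 0.16, adjusted p = 0.108), without which the value was -0.77 (adjusted p = 3.37e-05). The difference between pituitary and ovary was 1.12 ± 0.20 (adjusted p = 0.000929) in young and 2.55 ± 0.37 (adjusted p = 0.00155) in older mice.

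Kcnab3, an auxiliary subunit of Kv1 channels, fell in older 200M ovary. It was at 16.7, 16.3, 15.1 and 14.8 CPM in WT, 4.86, 9.31, 6.18 and 14.2 CPM in 200H and 3.18, 16.1, 4.27 and 3.91 CPM in 200M in young ovary. In older ovary Kcnab3 was at 32.5, 126, 86.3 and 71.8 CPM in WT, 97.7, 108, 61.9 and 57 CPM in 200H and 5.9, 10.4, 3.33 and 6.82 CPM in 200M. The older 200M libraries were below all others, at 11.9-fold lower than WT (log2 -3.57 ± 0.46, adjusted p = 0.00852), a call that no single library decided. In the young cohort the log2 value was -1.14 (adjusted p = 0.132), and -2.03 (adjusted p = 4.52e-06) without 200M replicate 2. It shares 147 of its 2865 exon bases with Kcnab3os, and there the unstranded older libraries cannot tell the reads of the 2 genes apart. No call on all stranded young libraries stands beside the older one.

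The A-type channel Kcnd2 fell in 200M ovary of both cohorts. It was at 45.9, 27.7, 51.4 and 35.4 CPM in WT, 23.2, 29.4, 12.4 and 19 CPM in 200H and 9.53, 28.5, 12 and 11.6 CPM in 200M in young ovary. In older ovary Kcnd2 was at 19.6, 29, 32.9 and 57.8 CPM in WT, 22.7, 26.5, 19.1 and 14.7 CPM in 200H and 9.28, 4.08, 3.33 and 10.3 CPM in 200M. The older 200M libraries were below all others (log2 -2.34 ± 0.45, adjusted p = 0.0324), while in the young cohort replicate 2 of 200M lay within WT (log2 -1.35 ± 0.27, adjusted p = 0.0218). The young call was lost without WT replicate 1, 3 or 4 or 200M replicate 1 or 3 (log2 -1.26 and adjusted p = 0.0903 without 200M replicate 3), and the older call was lost without WT replicate 2, 3 or 4 or 200M replicate 1, 2 or 4 (log2 -2.42 and adjusted p = 0.0916 without WT replicate 2).

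Kcnq3 and Kcna4, raised in pituitary, fell in ovary from low levels. In older ovary the filter kept both only through their WT libraries. Kcnq3 was at 8.37, 7.33, 8.66 and 11.4 CPM in WT, 2.79, 9.31, 4.3 and 12.1 CPM in 200H and 3.18, 6.87, 2.71 and 1.95 CPM in 200M in young ovary. In older ovary Kcnq3 was at 0.876, 2.32, 1.73 and 6.16 CPM in WT, 3.6, 4.06, 0.615 and 0.803 CPM in 200H and 0.328, 0.36, 0.249 and 0.152 CPM in 200M. The older 200M libraries held 3, 3, 3 and 2 counts. The 200M libraries were below all WT libraries (log2 -1.24 ± 0.30, adjusted p = 0.044 in young and -3.34 ± 0.66, adjusted p = 0.0357 in older mice). The young call was lost without WT replicate 1, 2, 3 or 4 or 200M replicate 1, 3 or 4 (log2 -1.17 and adjusted p = 0.147 without 200M replicate 1), and the older call was lost without WT replicate 2, 3 or 4 or 200M replicate 1, 2, 3 or 4 (log2 -3.41 and adjusted p = 0.0988 without WT replicate 2). Kcna4 was at 0.963, 1.36, 1.09 and 5.17 CPM in WT, 0.645, 0.472, 0.889 and 0.335 CPM in 200H and 0.218, 0, 0.166 and 0.152 CPM in 200M in older ovary, from 11, 17, 12 and 63 counts in WT and 2, 0, 2 and 2 in 200M (log2 -3.83 ± 0.79, adjusted p = 0.0409). That call was lost without WT replicate 2, 3 or 4 or 200M replicate 1, 2, 3 or 4 (log2 -4.08 and adjusted p = 0.101 without 200M replicate 1).

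In young ovary the G protein-gated rectifier Kcnj3 and the silent subunit Kcng3 rose slightly. Kcnj3 was at 19.98, 22.5, 22.1 and 23.9 CPM in WT, 39.5, 35.3, 26.5 and 21.8 CPM in 200H and 40.4, 28.3, 28.1 and 33.7 CPM in 200M and Kcng3 at 25.3, 26.3, 34.9 and 25.8 CPM in WT, 42.9, 33.6, 31 and 35.6 CPM in 200H and 45.2, 35.2, 36.2 and 39.9 CPM in 200M. The 200M libraries were above all WT libraries for both genes, at a log2 change of 0.57 ± 0.12 (adjusted p = 0.0218) for Kcnj3 and 0.49 ± 0.11 (adjusted p = 0.0348) for Kcng3. The Kcnj3 call was lost without WT replicate 1 or 3 or 200M replicate 1 (log2 0.47 and adjusted p = 0.0892 without 200M replicate 1), and the Kcng3 call was lost without WT replicate 1, 2 or 4 or 200M replicate 1, 3 or 4 (log2 0.42 and adjusted p = 0.133 without 200M replicate 1).

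Between 200M and 200H, edgeR called 3 of 56 channel genes in older ovary (5.36%, against 1.61% of all genes), Kcnab3 (log2 -3.64 ± 0.37, adjusted p = 0.00355), Kcng4 (2.38 ± 0.32, adjusted p = 0.0109) and Kcnma1 (-1.78 ± 0.25, adjusted p = 0.0127), the last lost without 200H replicate 1 or 2 (log2 -1.75 and adjusted p = 0.0539 without 200H replicate 2). DESeq2 called 7. In young ovary edgeR and DESeq2 called 0 of 75 (0% of all genes), with 1 at an unadjusted p under 0.05, where 648 of 19259 genes were.

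Luteal marker sums were lower in 200M than in WT ovary by median, with overlap in both cohorts. Medians were 19940 CPM in older WT and 10660 in older 200M, and 9715 and 8048 CPM in the young groups. The older overlap came from WT replicate 1 alone. Immune and oligodendrocyte sums stood apart in the older cohort. The sum of 7 luteal genes (Star, Cyp11a1, Hsd3b1, Lhcgr, Ptgfr, Akr1c18 and Prlr, a list added after values were seen) ranged from 12360 to 33390 CPM in older WT, from 15810 to 25500 in 200H and from 5283 to 13020 in 200M, with 3 of 7 lowered in 200M against WT. In the young cohort it ranged from 7396 to 10170 CPM in WT, from 4729 to 8112 in 200H and from 5118 to 8872 in 200M, with replicate 2 at 8872 and 3 of 7 lowered in 200M. The 4 immune genes summed to between 129.8 and 245.9 CPM in older WT and between 309.5 and 584.1 in 200M, with 1 of 4 raised, and in the young cohort overlapped at 91.43 to 123.7 CPM in WT and 92.98 to 100.8 in 200M. Oligodendrocyte markers were at 82.05 to 130.6 CPM in older WT and 39.09 to 48.05 in 200M, with 1 of 3 tested lowered. Their part in Kcnma1, Kcnab3, Kcnd2, Kcng4 or Kcnt1 was not tested, nor was that of ovulation or pregnancy history.

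Set against ovary, the 200M effect in pituitary differed for 18 of 78 channel genes in the young cohort (23.1%, against 10.1% of all genes), 14 higher and 4 lower, and for 12 of 77 in the older cohort (15.6%, against 5.77%), 8 higher and 4 lower, or 9 and 2 with scaling by totals alone. Kcna4 had differences of 3.03 ± 0.41 (adjusted p = 6.5e-05) in young and 5.86 ± 0.90 (adjusted p = 0.00198) in older mice, and Kcnq3 of 2.67 ± 0.50 (adjusted p = 0.00141) and 4.56 ± 0.80 (adjusted p = 0.00471). Kcnk3 (1.80) followed in the young cohort, and Kcnab3 (3.73) and Kcnd2 (2.76) in the older one. The older differences of Kcna4 and Kcnq3 rest on the very low counts in 200M ovary given above. Within older ovary the filter kept these genes only through WT, so the size of both differences is poorly determined. The older count was 6 without pituitary WT replicate 2 or pituitary 200M replicate 1, 2 or 3, and 7 without ovary WT replicate 2.

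**Figure D5:**
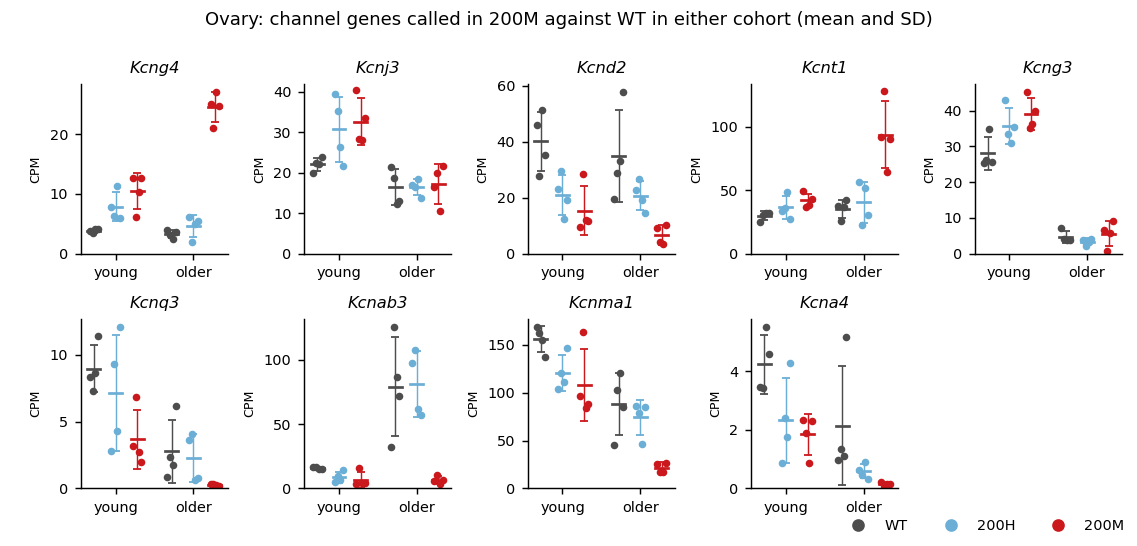
Points are ovary libraries of WT, 200H and 200M in both cohorts (CPM, linear axes from 0), with mean and SD, for the channel genes called in 200M against WT in either cohort. Kcng4 and Kcnt1 sit higher in 200M of both cohorts, and for Kcnab3, Kcnma1 and Kcnd2 the young 200M library replicate 2 stays at the WT level while the older 200M libraries are low.

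Channel partners were not called in hypothalamus or ovary in any 200M comparison with WT (0 of 12 and 14 tested in young and older hypothalamus, 0 of 12 and 11 in ovary). Of the potassium transport genes, 1 rose in older 200M ovary, Fxyd6 (log2 fold change 1.18, adjusted p = 0.00939), and 1 fell. Over all genes 2.71% were called in older 200M ovary, in either direction.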

How the data were processed

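The data are RNA sequencing counts of mouse pituitary, hypothalamus and ovary. The authors aligned reads with STAR 2.7.1a to mm10 and deposited 18 tables of raw counts per gene, from htseq-count (HTSeq 0.9.1, unstranded) for older pituitary and hypothalamus and from featureCounts otherwise (reverse strand in the young cohort). Their DESeq2 fold changes and p-values in those tables were not used, nor were 3 count columns with a repeated name. The young WT pituitary library whose column number matched no label is called replicate u. The test was the quasi-likelihood F test of edgeR 4.0.16 (in R 4.3.3) with TMM scaling, on genes kept by filterByExpr, for each genotype pair by itself within tissue and cohort, with Benjamini-Hochberg adjustment over all genes tested and a threshold of 0.05. Interactions were fitted over 200M and WT libraries. SE was derived as log2 fold change divided by the root of F. The code was tested on simulated data. Alternatives were DESeq2 1.42.0, RLE scaling, library totals only, no filter, a mean of at least 50 counts, a replicate block, all genotypes in 1 fit and leaving out each library. Depth was 7.56e6 to 13.34e6 counts in young and 4.53e6 to 12.96e6 in older pituitary, 3.32e6 to 5.14e6 and 10.19e6 to 13.92e6 in hypothalamus and 6.34e6 to 12.9e6 and 7.99e6 to 14.66e6 in ovary. Among 99 pairs of libraries within groups none was a copy. Replicates are different mice. Named were members called in both pituitary cohorts (up to 10 raised and 8 lowered by library, and Kcnh7), those called in ovary or between 200M and 200H, pituitary excitability genes, the 5 highest in WT and the 6 of smallest interaction p. A few genes and 1 promoter sequence are not reported here. Members and lists were chosen with earlier results of these data known. Others, such as Kcnq5, Kcna6, Kcnh3, Kcna5, Kcnab1, Kcne2 and Kcnj8, were chosen after their values were seen.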

Additional observations from a re-analysis of the deposited data

Results flagged for a closer look

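In 8 of 114 groups of 4 libraries and named genes examined, 1 library stood far from the other 3, where chance gives about 1 in 20 groups, or 5.7. Of these, 3 were the same library, young ovary 200M replicate 2, with Kcnd2 at 28.49, Kcnab3 at 16.14 and Kcnma1 at 163.4 CPM, each above the other 200M libraries. The remaining ones were Kcnj9 at 1.803 CPM in young pituitary 200H replicate 2, Kcnk9 at 119.7 CPM in young pituitary 200M replicate 4, Kcng3 at 34.9 CPM in young ovary WT replicate 3, Kcng3 at 7.268 CPM in older ovary WT replicate 1 and Kcna4 at 5.172 CPM in older ovary WT replicate 4. Young ovary 200M replicate 2 also had the highest luteal sum of the young 200M libraries, at 8872 CPM. Whether it is the 200M mouse with corpora lutea that the paper marks is not given by the labels.

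The 200M effect differed between tissues by the interaction test for the genes below, with the difference in log2 fold change given as pituitary minus the other tissue. Against young hypothalamus it was 1.68 for Kcnh7, 0.95 for Kcnk9, 1.15 for Kcna2, 1.89 for Kcna4 and 0.73 for Kcnma1. Against older hypothalamus it was 1.32 for Kcnk3, 1.35 for Kcnc1, 2.33 for Kcna4, 1.56 for Kcnj9 and 0.88 for Kcnk2. Against young ovary it was 3.03 for Kcna4, 1.80 for Kcnk3, 1.12 for Kcnma1, 2.67 for Kcnq3 and -0.94 for Kcnt1. Against older ovary it was -2.035 for Kcnt1, 2.55 for Kcnma1, 5.855 for Kcna4, 4.56 for Kcnq3, 3.73 for Kcnab3 and 2.76 for Kcnd2. Those of Kcna4 and Kcnq3 rest on very low counts in older 200M ovary, where the filter kept both genes only through WT.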

How the results depend on the processing

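The counts of channel genes called in 200M pituitary stayed within 1.5 times their values in each cohort under every alternative run. No named gene that was called changed sign under any, while values not called were not checked for sign. Without a filter the count of 200M against 200H was 4 in young and 7 in older pituitary, and 9 in older hypothalamus. There it was also 11 for 200M and 1 for 200H against WT, and it was 11 for 200M and 3 for 200H in young ovary. DESeq2 called 1 and 2 channel genes between 200M and 200H in young and older pituitary, 5, 1 and 4 in older hypothalamus (200M and 200H against WT, 200M against 200H), 1 in young 200H ovary and 7 between 200M and 200H in older ovary. Shares of all genes called by DESeq2 or without a filter are not given here, so these counts cannot be set against all genes. With all genotypes in 1 fit, young 200M ovary gave 1. Scaling by library totals gave 29 genes raised and 4 lowered in both pituitary cohorts. The cause of these differences was not tested, except that the fit without a filter tests more genes.

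Replicate numbers showed no consistent pairing of genotypes within a tissue. Deviations of same-numbered libraries correlated from -0.0768 to 0.104 in young pituitary, from -0.475 to 0.453 in young ovary and from -0.649 to 0.344 in older ovary. Whether libraries of different tissues came from the same mice was not checked, and the interactions of genotype and tissue treated them as independent. With a replicate block the count was 28 in young and 39 in older 200M pituitary, 1 and 2 in young and older 200M ovary, 5 and 5 for pituitary against ovary in the young and older cohort, and 4 for genes lowered in both pituitary cohorts.

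Leaving out 1 library at a time, the count ranged from 15 to 26 in young and from 15 to 27 in older 200H pituitary, and between 200M and 200H from 0 to 1 and from 0 to 5. It ranged from 0 to 2 in older 200M hypothalamus, from 1 to 9 in young and from 2 to 8 in older 200M ovary, and from 6 to 14 for pituitary against ovary in the older cohort. Among values of single named genes, 1316 kept their side of the threshold, 161 lost and 19 gained a call. Groups of 3 or 4 mice and the low counts of Kcng4, Kcnq3 and Kcna4 limit the precision.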
